A study of Mus musculus with 18 samples.

Results

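The genes described here are 9 imprinted genes of growth control, Mest, H19, Igf2, Dlk1, Peg3, Plagl1, Cdkn1c, Grb10 and Igf2r. They were listed by name, and each was read from 1 probe set that names that gene alone. Of the 9, 8 had such a probe set among 19912 genes measured, and each of the 8 had only 1 to choose from. H19, the non-coding RNA of the Igf2 domain, had none and was not analysed here. RNA came from CD1 mouse cells on 18 Affymetrix Mouse Gene 1.0 ST arrays, in 6 groups of 3. Neonatal cardiomyocytes (CM) and neonatal cardiac fibroblasts (CF) are the end points. The other 4 groups are GFP+ induced cardiomyocyte-like cells (iCMs), labelled as fibroblasts in which reprogramming succeeded, and GFP- cells, labelled as fibroblasts in which it failed, each at 2 and at 4 weeks. The labels give no reprogramming agent, no promoter for GFP and no age beyond neonatal, and all groups share the CD1 strain. The arrays of a group are described as biological replicates without naming separate cultures or animals, so each p-value reflects array-to-array spread, which may be technical.

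An imprinted gene is expressed mainly from the copy inherited from 1 parent. The parental copies differ in DNA methylation of CpG sites at a control region. As a broad rule, paternally expressed members (Igf2, Mest, Peg3, Plagl1, Dlk1) promote growth before birth, and maternally expressed members (H19, Cdkn1c, Grb10, Igf2r) restrain it. Many of them are high in fetal and newborn organs and are switched down together as growth slows, and Plagl1 encodes a transcription factor that is known to regulate several of the others. An array reads the sum of both copies, so it does not show which parental copy was used.

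The start regions of 4 members with different patterns are shown with their CpG sites. They were not chosen as imprint control regions, so the marked sites need not carry the imprint. Promoters of 7 of the 9 genes were matched in the RefSeq table (GRCm38.p6), and for a gene with several starts the window with the most CpG sites was taken. Each sequence below is the 250 bases before the start, 5′ to 3′ on the strand of the gene, with CpG sites in capitals.
Mest (chr6:30737800-30738049, plus strand): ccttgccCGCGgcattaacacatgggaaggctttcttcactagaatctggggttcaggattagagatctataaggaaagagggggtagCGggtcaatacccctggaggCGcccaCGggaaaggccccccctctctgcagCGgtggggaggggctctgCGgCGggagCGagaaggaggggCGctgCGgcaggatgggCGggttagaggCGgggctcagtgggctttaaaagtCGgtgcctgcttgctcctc
Igf2 (chr7:142658805-142659054, minus strand): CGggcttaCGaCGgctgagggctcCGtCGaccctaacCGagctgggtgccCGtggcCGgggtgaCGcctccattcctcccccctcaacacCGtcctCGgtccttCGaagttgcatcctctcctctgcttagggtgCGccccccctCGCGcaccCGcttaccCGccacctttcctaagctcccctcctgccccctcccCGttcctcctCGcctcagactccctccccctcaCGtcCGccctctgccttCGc
Peg3 (chr7:6730420-6730669, minus strand): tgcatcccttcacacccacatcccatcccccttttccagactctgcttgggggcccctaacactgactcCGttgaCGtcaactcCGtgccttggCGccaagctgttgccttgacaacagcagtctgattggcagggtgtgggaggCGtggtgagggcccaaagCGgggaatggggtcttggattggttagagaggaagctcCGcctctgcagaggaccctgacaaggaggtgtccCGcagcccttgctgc
Igf2r (chr17:12769707-12769956, minus strand): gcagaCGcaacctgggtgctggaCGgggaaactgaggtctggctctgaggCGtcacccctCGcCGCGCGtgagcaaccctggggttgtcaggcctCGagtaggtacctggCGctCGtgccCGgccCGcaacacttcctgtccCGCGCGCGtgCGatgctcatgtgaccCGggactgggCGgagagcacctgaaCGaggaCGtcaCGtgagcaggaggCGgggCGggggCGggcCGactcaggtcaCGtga
In the 300-base window around the start (250 before, 50 after), Mest held 17 CpG sites, Igf2 24, Peg3 13 and Igf2r 34, beside 45 in Grb10, 26 in Plagl1 and 9 in Dlk1. The median over the 27025 genes with a window was 8. A GC box, GGGCGG on either strand, was found in the windows of 5 of 7 members (Mest, Igf2, Plagl1, Grb10 and Igf2r) and in 37.3% of all windows. Of the GATA motifs, TGATAA was found in 1 member window, that of Dlk1 (9.02% of all windows), and AGATAA in 0 (11% of all windows). The T-box motif AGGTGT was found in Dlk1 and Peg3 (13.8% of all windows). These searches covered both strands, and the 4 motifs were counted separately. A match says only that the letters are present.

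Before the members, the labels were checked against marker genes. The mean over 12 cardiomyocyte markers ran from 12.93 to 12.98 log2 in the CM arrays, from 10.73 to 11.46 in the 6 iCM arrays, from 8.03 to 8.42 in the 6 GFP- arrays and from 7.33 to 7.46 in the CF arrays. The mean over 12 fibroblast markers ran from 10.58 to 10.95 in CF, from 9.59 to 9.91 in CM, from 8.77 to 9.30 in GFP- cells and from 8.42 to 9.17 in iCMs, so the GFP- arrays lay below CM and overlapped the iCMs. The 14 macrophage markers were high in the arrays labelled as fibroblasts (11.69 to 11.92) and GFP- cells (11.94 to 12.08), intermediate in iCMs (9.20 to 9.90) and low in CM (6.61 to 6.79), where Adgre1, Msr1 and Itgam were not above background. The 10 endothelial markers ran from 6.87 to 6.96 in CF, 7.33 to 7.46 in iCMs, 7.70 to 7.79 in 2-week GFP- cells, 8.23 to 8.55 in 4-week GFP- cells and 8.44 to 8.53 in CM. The 9 mesothelial markers were highest in iCMs (9.14 to 9.70), beside 8.14 to 8.80 in GFP- cells, 8.22 to 8.62 in CF and 7.53 to 7.58 in CM. The 9 smooth muscle and pericyte markers were lowest in GFP- cells (7.65 to 8.17). They ran from 8.55 to 8.85 in CF, 8.51 to 8.83 in iCMs and 8.48 to 8.75 in CM. In such bulk RNA, fewer cells of a type and less RNA per cell cannot be told apart. Their part in the results below was not tested.

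**Figure D1:**
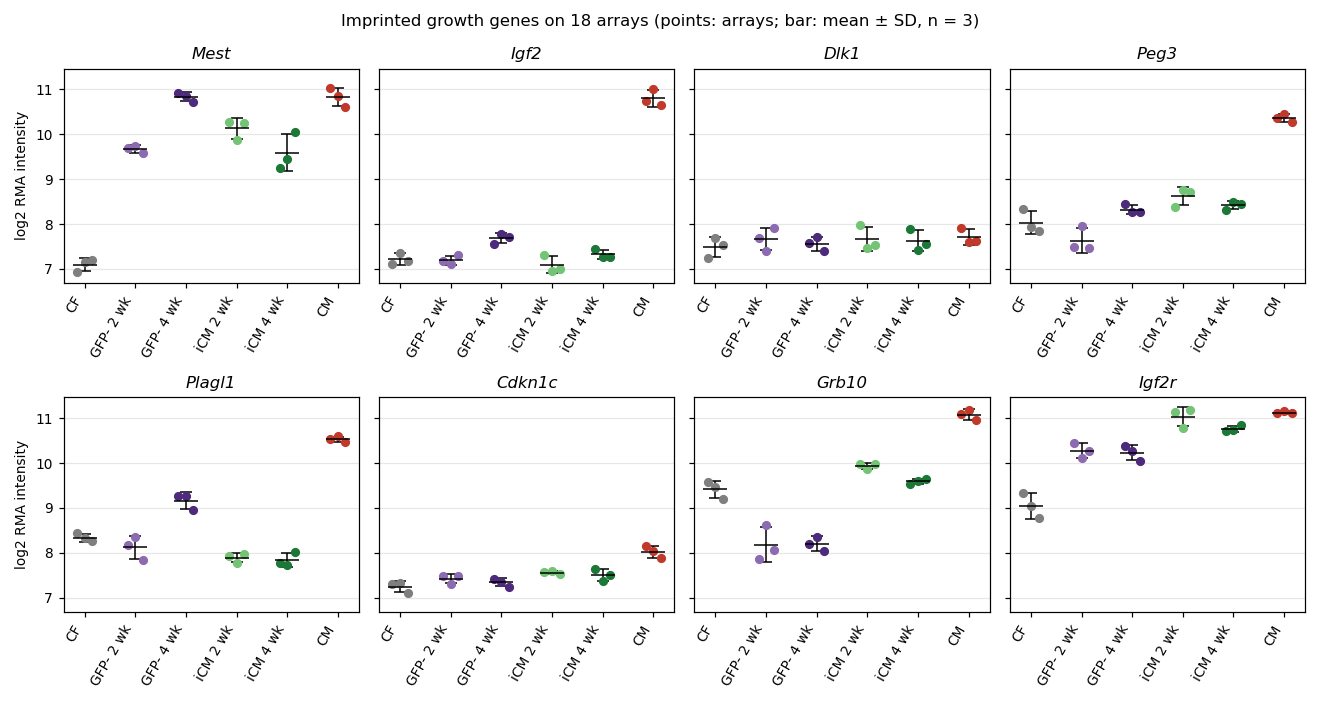
Log2 RMA intensity of the 8 measured members on each of the 18 arrays, by group. Points are arrays and bars are the mean ± SD of 3 arrays. Mest is low only in CF, Igf2 is high only in CM, Grb10 is lowest in GFP- cells, and Dlk1 lies between 7.24 and 7.97 throughout.

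Mest, a protein of the alpha/beta-hydrolase family that is expressed from the paternal copy, differed most between fibroblasts and every other group. On the log2 scale the CF arrays read 6.93, 7.16 and 7.20, and the CM arrays 11.03, 10.84 and 10.61. The 2-week iCM arrays read 10.28, 9.87 and 10.25 and the 4-week iCM arrays 9.26, 9.45 and 10.04. The 2-week GFP- arrays read 9.70, 9.74 and 9.58 and the 4-week GFP- arrays 10.93, 10.86 and 10.73. No array of the other groups overlapped the CF arrays, so Mest was high in cells labelled as failed as well as in those labelled as reprogrammed. Against CF, Mest was 8.21-fold higher in 2-week iCMs (3.04 ± 0.16 log2, SE, limma adjusted p = 1.15e-11), 5.61-fold higher in 4-week iCMs (adjusted p = 1.47e-10), 5.98-fold higher in 2-week GFP- cells (adjusted p = 1.01e-09) and 13.4-fold higher in 4-week GFP- cells (adjusted p = 3.91e-12). The CM difference from CF was 13.3-fold. The 4-week GFP- and CM arrays overlapped, and their means stood at 10.84 ± 0.10 and 10.83 ± 0.21 (SD, n = 3). In order of mean level, 2-week iCMs followed below CM without overlap, 2-week GFP- cells (9.68 ± 0.09) and 4-week iCMs (9.58 ± 0.41) overlapped each other, and CF came last.

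Igf2, the fetal growth factor that binds the IGF1 and insulin receptors, was high in cardiomyocytes alone. The CM arrays read 10.73, 11.01 and 10.64 log2, and every other array lay between 6.96 and 7.77. The CF arrays read 7.11, 7.36 and 7.17, the 2-week iCM arrays from 6.96 to 7.31, and the 4-week iCM arrays 7.44, 7.28 and 7.27. Cardiomyocytes stood 12-fold above CF (3.58 ± 0.11 log2, SE, limma adjusted p = 1.05e-15), 13-fold above 2-week iCMs (adjusted p = 1.68e-15) and 11.1-fold above 4-week iCMs (adjusted p = 6.08e-15). Igf2 in iCMs was not called against CF at 2 weeks (-0.13 log2, 95% interval -0.36 to 0.11; called with array weights at -0.25, adjusted p = 0.0199) or at 4 weeks (0.11, -0.12 to 0.35). These intervals leave out a rise of the size seen in cardiomyocytes. The 2-week GFP- arrays, at 7.17, 7.10 and 7.30, overlapped CF, while the 4-week GFP- arrays, at 7.56, 7.77 and 7.71, lay above all CF arrays (1.38-fold, adjusted p = 0.00793).

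Igf2r, the mannose 6-phosphate receptor that carries IGF2 to the lysosome and so lowers its level, was higher in every other group than in CF. The CF arrays read 9.34, 9.05 and 8.77 log2 and the CM arrays 11.11, 11.16 and 11.11. The 2-week iCM arrays read 11.13, 10.79 and 11.18 and the 4-week iCM arrays 10.71, 10.74 and 10.84. The 2-week GFP- arrays read 10.45, 10.11 and 10.28 and the 4-week GFP- arrays 10.38, 10.27 and 10.05. CM and iCM arrays were all above the GFP- arrays, which were all above the CF arrays. Against CF, Igf2r was 3.94-fold higher in 2-week iCMs (1.98 ± 0.13 log2, SE, limma adjusted p = 3.73e-10) and 3.28-fold higher in 4-week iCMs (adjusted p = 2.43e-09). It was 2.34-fold and 2.27-fold higher in GFP- cells at 2 and 4 weeks (adjusted p = 1.55e-06 and 2.8e-06). The 2-week iCMs differed from CM by -0.10 log2 (95% interval -0.37 to 0.18, not called). The 4-week iCMs lay 1.28-fold below CM (adjusted p = 0.041), a call that was lost when any of the 6 arrays of these groups was left out (adjusted p from 0.0544 to 0.107).

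Grb10, an adaptor that binds the activated insulin and IGF1 receptors and dampens their signal, was lower in GFP- cells than in CF and highest in CM. The CF arrays read 9.58, 9.48 and 9.21 log2 and the CM arrays 11.10, 11.19 and 10.95. The GFP- arrays read 7.87, 8.61 and 8.07 at 2 weeks and 8.21, 8.37 and 8.04 at 4 weeks, all below CF. The 2-week iCM arrays read 9.97, 9.86 and 9.98, all above CF, and the 4-week iCM arrays 9.54, 9.60 and 9.64, which overlapped CF. Against CF, Grb10 was 2.35-fold lower in 2-week GFP- cells (-1.23 ± 0.14 log2, SE, limma adjusted p = 3.6e-06) and 2.33-fold lower in 4-week GFP- cells (adjusted p = 5.03e-06). Against GFP- cells of the same week, iCMs were 3.37-fold higher at 2 weeks (adjusted p = 4.92e-09) and 2.63-fold higher at 4 weeks (adjusted p = 1.33e-07). The 2-week iCMs stood 1.43-fold above CF (adjusted p = 0.00782, and 0.0564 without replicate 3 of CF), and the 4-week iCMs were not called against CF (0.18 log2, 95% interval -0.12 to 0.47).

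Plagl1, a zinc finger transcription factor also known as Zac1, was highest in cardiomyocytes and lowest in iCMs. The CM arrays read 10.53, 10.59 and 10.47 log2 and the CF arrays 8.44, 8.32 and 8.26. The 2-week iCM arrays read 7.93, 7.78 and 7.97 and the 4-week iCM arrays 7.78, 7.73 and 8.02, all below CF. The 2-week GFP- arrays, at 8.17, 8.36 and 7.84, overlapped both CF and the iCMs, and the 4-week GFP- arrays, at 9.27, 9.27 and 8.95, stood between CF and CM with no overlap. The 2-week iCMs and GFP- cells were not called apart (-0.23 log2, limma adjusted p = 0.161), and were without replicate 3 of the GFP- cells (-0.37, adjusted p = 0.0189). Plagl1 in iCMs was 1.36-fold below CF at 2 weeks (limma adjusted p = 0.0063) and 1.41-fold below at 4 weeks (adjusted p = 0.0029), so it lay on the side of CF away from CM. In 4-week GFP- cells it was 1.77-fold above CF (0.83 ± 0.12 log2, SE, adjusted p = 6.82e-05) and 2.5-fold above 4-week iCMs (adjusted p = 2.27e-08).

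Peg3, a large paternally expressed zinc finger protein, was highest in cardiomyocytes and lowest in 2-week GFP- cells. The CM arrays read 10.36, 10.45 and 10.27 log2, and the CF arrays 8.33, 7.92 and 7.84. The iCM arrays read 8.39, 8.77 and 8.70 at 2 weeks and 8.31, 8.49 and 8.46 at 4 weeks. The GFP- arrays read 7.48, 7.95 and 7.46 at 2 weeks and 8.44, 8.27 and 8.26 at 4 weeks. Cardiomyocytes stood apart from all of them, and in the order of means each of the other groups overlapped the next. Peg3 was 5.03-fold higher in CM than in CF (2.33 ± 0.14 log2, SE, limma adjusted p = 2.04e-11), 1.5-fold higher in 2-week iCMs than in CF (adjusted p = 0.00212) and 1.98-fold higher than in 2-week GFP- cells (adjusted p = 7.5e-06). Calls near the threshold were those of 4-week iCMs (1.31-fold above CF, adjusted p = 0.0392) and 2-week GFP- cells (1.32-fold below CF, adjusted p = 0.0443), whose arrays overlap those of CF. The first was lost without replicate 2 or 3 of CF or of the 4-week iCMs (adjusted p from 0.104 to 0.19). The second was lost without replicate 1 or 2 of CF or replicate 1 or 3 of the 2-week GFP- cells (adjusted p from 0.0538 to 0.255), without any 1 of 6 arrays of other groups (0.0505 to 0.0536) and with only the groups compared (0.116). The 4-week GFP- cells were not called against CF (0.29 log2, adjusted p = 0.228), but were with array weights (0.34, adjusted p = 0.0276).

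Cdkn1c, the CDK inhibitor p57 that holds cells out of the cycle, spanned 0.78 log2 over the group means. The CM arrays read 8.16, 8.04 and 7.89, and the other 15 arrays lay between 7.10 and 7.64. Cardiomyocytes were 1.71-fold above CF (0.78 ± 0.10 log2, SE, limma adjusted p = 1.05e-06), and the 2-week iCMs, at 7.58, 7.59 and 7.53, were 1.24-fold above CF (adjusted p = 0.0149, and 0.0995 without replicate 3 of CF). The 4-week iCMs, at 7.64, 7.38 and 7.51, were 1.2-fold above CF (adjusted p = 0.0449), a call that was lost without replicate 1 or 3 of CF or of the 4-week iCMs (adjusted p from 0.0524 to 0.227) without any 1 of 6 arrays of other groups (0.0501 to 0.055), with an intensity trend (0.0507) and with only the groups compared (0.0721). The GFP- groups were not called against CF, though with array weights the 2-week cells were (0.19 log2, adjusted p = 0.0491). Of 6 other CDK inhibitors, 2 were called higher and 4 lower in 2-week iCMs than in CF (17.4% and 15.8% of all genes). Cdkn2b stood at 8.94 ± 0.07 in 2-week iCMs against 8.35 ± 0.25 in CF, and Cdkn2c, which blocks CDK4 and CDK6, at 7.37 ± 0.13 against 8.23 ± 0.18 (SD, n = 3).

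Dlk1, a membrane protein related to Notch ligands that marks immature cells, was called in 0 of the 12 limma comparisons, and its arrays overlapped between every pair of groups compared. Its means ran from 7.49 ± 0.22 log2 in CF to 7.71 ± 0.18 in CM (SD, n = 3), and the difference of 0.23 had a 95% interval of -0.10 to 0.56. That range of group means, 0.23 log2, compares with 3.74 for Mest and 3.71 for Igf2. The CF and CM means of Dlk1 stood at percentiles 49.3 and 55.5 among all genes, near the array medians of 7.32 to 7.45 log2. Without detection calls, whether Dlk1 was expressed in any group cannot be told. Of 16 Notch pathway genes, 3 were called higher and 3 lower in CM than in CF, near the shares over all genes (19.6% and 21.5%).

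Set side by side, the members called between the end points were all higher in CM, and those called in iCMs or GFP- cells against CF went both ways. A gene was called where its limma adjusted p was under 0.05. In CM against CF, 7 of 8 members were called higher (19.6% of all genes) and 0 lower (21.5% of all genes; 0 members also at an unadjusted p under 0.05). Their median difference was 2.13 log2, beside 0.03 over all genes. In 2-week iCMs against CF, 5 of 8 were higher (Mest, Igf2r, Grb10, Peg3 and Cdkn1c, 17.4% of all genes) and Plagl1 was lower (15.8% of all genes). Without replicate 3 of CF, 3 were called higher, since Grb10 and Cdkn1c were lost (limma adjusted p = 0.0564 and 0.0995). In 4-week iCMs against CF, 4 of 8 were higher (Mest, Igf2r, Peg3 and Cdkn1c, 14.3% of all genes) and Plagl1 again lower (15.2% of all genes), and without replicate 3 of CF or of the 4-week iCMs 3 members in all were called. In 2-week GFP- cells against CF, Mest and Igf2r were higher (13.8% of all genes) and Grb10 and Peg3 lower (8.93%). In 4-week GFP- cells against CF, 4 of 8 were higher (Mest, Igf2r, Plagl1 and Igf2, 5.79% of all genes) and Grb10 was lower (5.7%). The 4 comparisons with CF share its 3 arrays.

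Against cells of the other fate in the same week, the members were called as follows. At 2 weeks, iCMs were higher than GFP- cells in 4 of 8 (Igf2r, Grb10, Peg3 and Mest, 16.2% of all genes) and lower in 0 (18.4%; 0 also at an unadjusted p under 0.05). The Mest difference at 2 weeks was 1.37-fold (limma adjusted p = 0.031), and it was lost without replicate 1 or 3 of either group (adjusted p from 0.0606 to 0.113). At 4 weeks, iCMs were higher in 2 of 8 (Grb10 and Igf2r, 17.2% of all genes) and lower in 3 of 8 (Mest, Plagl1 and Igf2, 17.1%). Mest was then 2.38-fold lower in iCMs than in GFP- cells (adjusted p = 2.35e-06). Igf2 was 1.28-fold lower (adjusted p = 0.0182), a call lost without replicate 2 or 3 of either group (adjusted p from 0.0528 to 0.077).

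Against cardiomyocytes, no member was called higher in iCMs (22.7% of all genes were at 2 weeks and 19% at 4 weeks, and 0 members were at an unadjusted p under 0.05 by limma). At 2 weeks 6 of 8 were lower than in CM (19.4% of all genes) and at 4 weeks 7 of 8 (16.1%), Igf2r being the one added. For the 6 members at least 2-fold apart between CF and CM, the level of the other groups was set on a log2 scale from the CF mean at 0% to the CM mean at 100%. Each SD on this scale is over the group's own arrays and leaves out the spread of the CF and CM arrays. Mest in 4-week GFP- cells stood at 100.3% ± 2.7 (SD, n = 3) and Igf2r in 2-week iCMs at 95.4% ± 10.2. Igf2 in iCMs stood at -3.5% ± 5.3 and 3.2% ± 2.6 at 2 and 4 weeks. Grb10 in GFP- cells lay at -74.3% ± 23.2 and -73.3% ± 9.9, farther from CM than fibroblasts are. The members therefore did not move along this scale as 1 group.

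**Figure D2:**
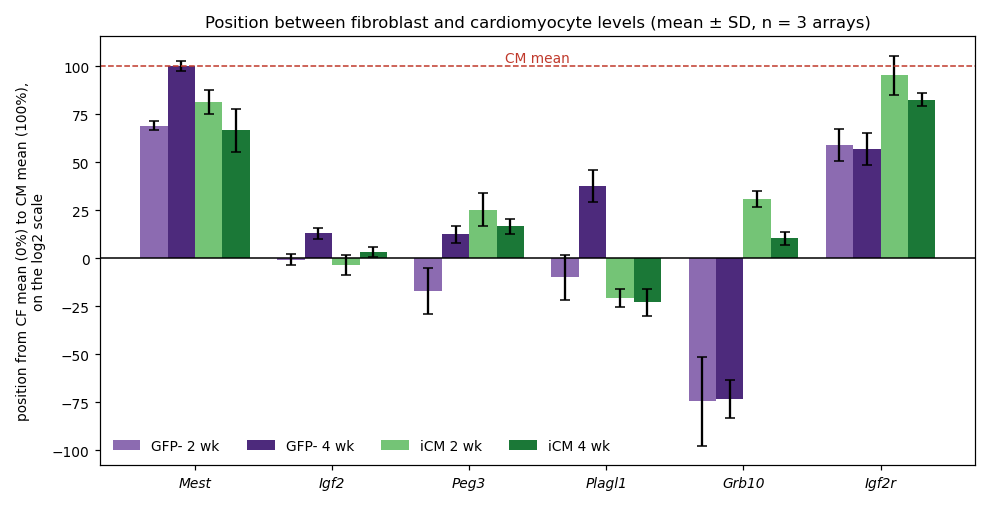
Position of 6 members between the CF mean (0%) and the CM mean (100%) on the log2 scale, by group. Bars are means and whiskers the SD of 3 arrays, without the spread of the CF and CM arrays. Mest and Igf2r stand from 57.0% to 100.3%, Igf2 from -3.5% to 13.1%, and Grb10 is below 0% only in GFP- cells.

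From 2 to 4 weeks Mest, Plagl1, Peg3 and Igf2 rose in GFP- cells, and Mest fell in iCMs. In GFP- cells 4 of 8 rose (Mest, Plagl1, Peg3 and Igf2, 7.16% of all genes) and 0 fell (10.2% of all genes; 0 also at an unadjusted p under 0.05 by limma). Mest rose 2.24-fold (1.16 ± 0.16 log2, SE, adjusted p = 4.3e-05), Plagl1 2.06-fold (adjusted p = 7.07e-06), Peg3 1.61-fold (adjusted p = 0.0016) and Igf2 1.41-fold (adjusted p = 0.0047), and in each of them the 3 arrays at 4 weeks lay above the 3 at 2 weeks. In iCMs 0 of 8 rose (4.29% of all genes, with 1 member at an unadjusted p under 0.05) and Mest fell (7.24% of all genes). The fall of Mest was 1.46-fold (adjusted p = 0.0305), its arrays overlapped, and the call was lost without replicate 1 or 3 of the 2-week iCMs, without replicate 1 or 2 of the 4-week iCMs (adjusted p from 0.106 to 0.154) with array weights (-0.31 log2, adjusted p = 0.0868) and with only the groups compared (0.114). Array weights called 3 other members in iCMs, Igf2 higher (0.27 log2, adjusted p = 0.017) and Grb10 and Igf2r lower (-0.33 and -0.29, adjusted p = 0.0183 and 0.0418). Grb10, whose arrays at 4 weeks all lay below those at 2 weeks, was also called with only the groups compared (0.0473) and without replicate 2 of the 2-week GFP- cells (0.0403).

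The test of the difference between these time changes, iCMs minus GFP- cells, called 3 of 8 members lower (2.08% of all genes) and 0 higher (1.86%; 0 also at an unadjusted p under 0.05). They were Mest (-1.71 ± 0.23 log2, SE, limma adjusted p = 0.000225), Plagl1 (-1.09 ± 0.17, adjusted p = 0.000866) and Peg3 (-0.89 ± 0.20, adjusted p = 0.0116). Igf2 was not called (-0.25 ± 0.16, adjusted p = 0.482), nor was Grb10 (-0.36 ± 0.20, adjusted p = 0.42), which was with array weights (-0.59, adjusted p = 0.0119) and without replicate 2 of the 2-week GFP- cells (-0.57, adjusted p = 0.043). Endothelial markers moved with these genes in GFP- cells: 5 of 10 rose from 2 to 4 weeks and 0 fell (7.16% and 10.2% of all genes). The VE-cadherin gene Cdh5 went from 8.74 ± 0.12 to 10.41 ± 0.27 log2 there (SD, n = 3). Of 13 proliferation genes 0 rose and 12 fell. The part of either in the rise of Mest, Plagl1, Peg3 and Igf2 was not tested.

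**Figure D3:**
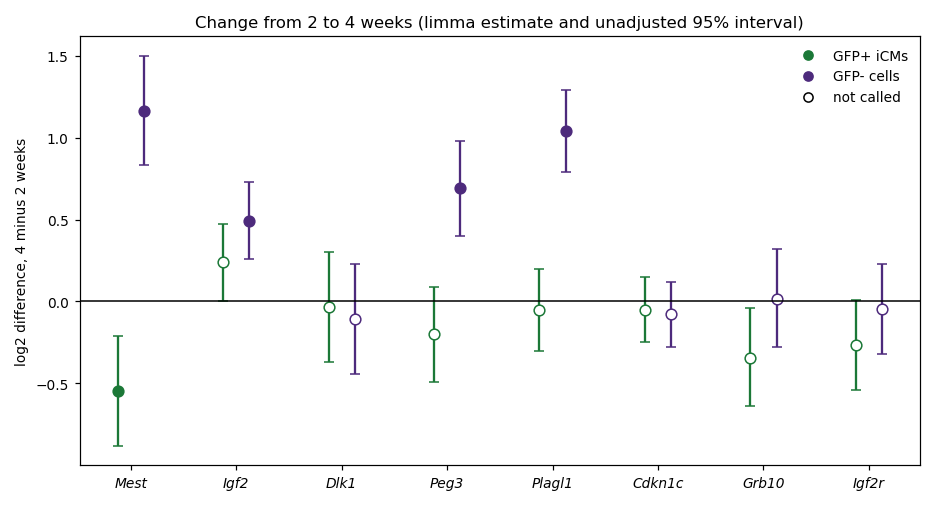
Log2 difference between 4 and 2 weeks for the 8 members in GFP+ iCMs (green) and GFP- cells (purple). Points are limma estimates, filled where called at an adjusted p under 0.05, and whiskers are unadjusted 95% intervals. Mest lies at -0.55 in iCMs and 1.16 in GFP- cells.

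Imprinted genes sit in domains, so the measured neighbours of the members were read as well, chosen after their values had been seen. Airn, the non-coding RNA that is transcribed across the start of Igf2r on the other strand, was higher than in CF by 2.26 ± 0.15 log2 in CM (SE, limma adjusted p = 1.03e-10), 1.98 ± 0.15 in 2-week iCMs, 1.83 ± 0.15 in 4-week iCMs and 1.13 ± 0.15 in 4-week GFP- cells. In 2-week GFP- cells Airn was not called (0.34 ± 0.15, adjusted p = 0.113) and Igf2r was, and the difference between these genes was not tested. Because the transcripts overlap and the sources used here do not say how strand was kept, the signals may not be separate. Ddc, the DOPA decarboxylase gene next to Grb10 that is imprinted in the developing heart, was 10.99 ± 0.13 log2 (SD, n = 3) in CM. The means of the other 5 groups lay between 6.26 and 6.63. Ddc was not called against CF in iCMs or GFP- cells, where Grb10 was called in all but 4-week iCMs. Cobl, the other neighbour of Grb10 that was read, was 7.64-fold above CF in 2-week iCMs and 10-fold in 4-week iCMs (limma adjusted p = 3.95e-15 and 5.21e-16). Against CF it was 1.71-fold higher in CM, 1.23-fold higher in 4-week GFP- cells (adjusted p = 0.0318) and not called in 2-week GFP- cells.

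The neighbours of the zinc finger genes and of Dlk1 gave further contrasts. Zim1, next to Peg3, was at least 2.23-fold higher in CM than in CF (limma adjusted p = 3.32e-11) and was not above background in any other group. Phactr2, near Plagl1, was higher by 2.02 ± 0.09 log2 in CM than in CF (SE, adjusted p = 1.94e-13) and by 0.43 ± 0.09 and 0.71 ± 0.09 in 2-week and 4-week GFP- cells (adjusted p = 0.00147 and 1.19e-05), with no call in iCMs against CF. Meg3, the maternal non-coding RNA of the Dlk1 domain, was lower than in CF in all 5 groups, from -0.76 ± 0.16 in CM (adjusted p = 0.000575) to -1.77 ± 0.16 in 4-week iCMs (adjusted p = 2.11e-08). Dlk1 was not called, and as given above its signal may not show expression. Rian, another RNA of that domain, was lower in all 5 as well and fell below the background level in iCMs. Copg2, which overlaps Mest on the other strand, was 0.52 ± 0.08 log2 higher in CM than in CF (adjusted p = 3.42e-05) and not called against CF in the other 4 groups, and as for Airn the strand is not settled. The probe set of Mir335, a microRNA precursor inside Mest, had means from 6.78 to 7.09 and was called in 0 of the 12 comparisons by limma. Those means lay below the array medians (7.32 to 7.45), and whether this probe set reads the precursor was not tested.

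**Figure D4:**
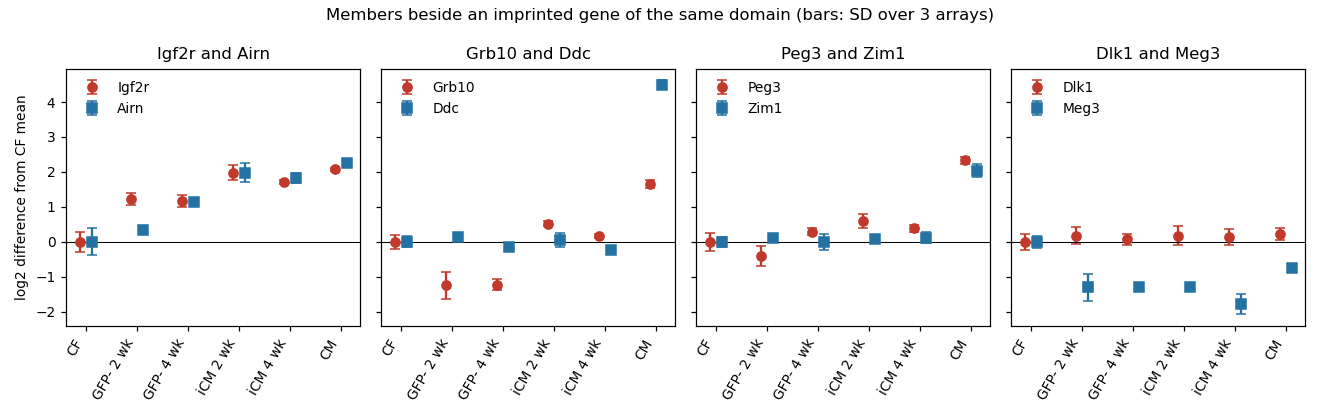
Difference of each group mean from the CF mean, in log2, for 4 members (red circles) and a neighbouring imprinted gene (blue squares). Whiskers are the SD of 3 arrays. Airn in 2-week GFP- cells is at 0.34 and Igf2r at 1.22, Ddc and Zim1 are raised only in CM (Zim1 is not above background elsewhere), and Meg3 is below its CF level in all 5 groups. Dlk1 is not called, and its means lie near the array medians.

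A wider list of 53 measured imprinted genes did not share 1 direction. In CM against CF 17 were called higher and 14 lower (19.6% and 21.5% of all genes). The median difference of the list was 0.11 log2, beside 0.03 over all genes. In 4-week GFP- cells against CF 4 were higher and 5 lower (5.79% and 5.7% of all genes). The amino acid transporter gene Slc38a4 was high in CM, as Igf2 was, at 11.20 ± 0.14 log2 (SD, n = 3) there and 6.13 ± 0.18 in CF, where it was not above background. Peg10, a retrotransposon-derived gene, was higher in 2-week iCMs than in CF (1.36 ± 0.20 log2, SE, limma adjusted p = 1.43e-05) and lower in CM (-2.35 ± 0.20, adjusted p = 3.88e-09). Asb4 and Qpct were higher in 4-week iCMs than in CF by 2.63 ± 0.18 and 2.20 ± 0.22 log2, and Gatm, an enzyme of creatine synthesis, was lower in them by 2.73 ± 0.14.

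In the IGF axis around Igf2 and Igf2r, the listed genes were called in both directions. Of 23 measured genes, 8 were called higher and 5 lower in 2-week iCMs than in CF (17.4% and 15.8% of all genes). In CM against CF, 4 were higher and 8 lower (19.6% and 21.5%). Igf1, a growth factor, stood at 11.17 ± 0.05 log2 in CF, 9.67 ± 0.14 in CM, 9.05 ± 0.13 in 4-week iCMs and 11.84 ± 0.04 in 4-week GFP- cells (SD, n = 3). Macrophages are a known source of Igf1, and their markers were high in the same CF and GFP- arrays, and their part in this was not tested. Igfbp5, a binding protein, was higher in 4-week iCMs than in 4-week GFP- cells by 3.64 ± 0.13 log2 (SE, limma adjusted p = 3.37e-14). Irs1, the adaptor that passes the signal on from the receptors, was higher in CM than in CF by 2.43 ± 0.20 (adjusted p = 2.65e-09) and in 4-week iCMs than in CF by 1.27 ± 0.20 (adjusted p = 3.45e-05). Igfbp3, a binding protein, and Pappa, a protease that cleaves other binding proteins of the family, were lower than in CF in all 5 other groups, by between -2.26 ± 0.18 (Igfbp3 in CM) and -1.37 ± 0.19 (Pappa in 4-week GFP- cells).

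Downstream of the receptors, Grb14, a relative of Grb10 with the same kind of inhibitory role, was lower than in CF by 0.94 ± 0.10 log2 in 2-week GFP- cells (SE, limma adjusted p = 9.3e-07) and higher by 1.63 ± 0.10 in CM (adjusted p = 2.24e-11), and it was not called in iCMs against CF. Of 17 adaptor and output genes, 7 were called higher and 3 lower in 2-week iCMs than in CF (17.4% and 15.8% of all genes). Among 15 genes of imprint control and DNA methylation, 2 were higher and 9 lower in 4-week iCMs than in 4-week GFP- cells (17.2% and 17.1% of all genes). In the same comparison 0 of 13 proliferation genes were higher and 12 lower, and their part in the count was not tested. Dnmt1, which copies methylation after replication, stood at 9.36 ± 0.10 against 10.20 ± 0.03 log2 in them, and Tet1, which oxidises methylated cytosine, at 9.10 ± 0.07 against 7.24 ± 0.25 (SD, n = 3). Of 11 lysosomal sorting genes beside Igf2r, 8 were higher and 0 lower in 2-week GFP- cells than CF (13.8% and 8.93% of all genes). In 2-week iCMs against CF 3 were higher and 5 lower (17.4% and 15.8%). In CM against CF, where Igf2r was higher, 2 were higher and 8 lower (19.6% and 21.5%). Macrophage markers were high in CF and GFP- arrays and low in CM, and their part in these counts was not tested.

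The genes whose 6 group means followed each member most closely were taken from the 4542 genes whose means spanned at least 1 log2. With Mest these were Acer2 (Pearson r = 0.977 over 6 group means), Cgnl1 (0.943) and Bex1 (0.925), and with Igf2 Pde1c (0.998), Yipf7 (0.997) and Ldb2 (0.997). With Peg3 they were Rhobtb1 (0.997), Scmh1 (0.99) and Daam1 (0.989), and with Plagl1 Tspan13 (0.993), Klhl4 (0.986) and Rtn4rl1 (0.981). With Grb10 they were L3hypdh (0.994), Grb14 (0.99) and Macroh2a2 (0.988), and with Igf2r the cardiac troponin gene Tnnt2 (0.976), Bex4 (0.968) and Kcnj8 (0.967). Bex1, at 11.11 log2 in CM and 9.80 in 2-week iCMs, shared with Mest a minimum in CF. There Bex1 read 4.06, which is not above background. Among the members themselves, r over the 6 group means was 0.934 for Igf2 with Plagl1 and 0.928 for Igf2 with Peg3, both carried by the high CM mean, and 0.829 for Mest with Igf2r. For Mest with Grb10 it was 0.095. All these values share the same 18 arrays and describe 6 points.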

How the data were processed

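Each deposited table cell is a log2 intensity of 1 probe set, which the authors made with RMA, per the submitters' processing notes. The software, version and genome build are not given in the sources used here. Per the labels' protocols, RNA was extracted with PicoPure and labelled with MessageAmp II-biotin. All 18 columns mapped to a sample, and array medians ran from 7.32 to 7.45 log2. The number of arrays limits the precision.

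Of 28682 probe sets, 21755 named 1 gene in the platform annotation. For each gene the brightest such probe set was kept. One limma 3.58.1 model (lmFit, eBayes, R 4.3.3) with 6 groups as the only term was fitted to all 19912 genes, and 12 comparisons were drawn, two-sided, with Benjamini-Hochberg adjustment over all genes in each. Errors are SE for differences and SD for means, and 95% intervals are unadjusted. Tested on simulated data for CM against CF over 19912 genes, the fit recovered 59.7% of changes of 0.5 log2 and 100% of changes of 1 log2. Of the genes it called, 5.46% were false. The simulation had independent noise and changed few genes, in CM alone, whereas 8169 genes were called in the data. These shares therefore do not measure the power in the data. Background was set at 6.16 log2, which is the smallest of the arrays’ own 25th percentiles. A group mean below it is called not above background, and a difference against one is a lower bound. Promoter sequences and gene neighbours are from RefSeq (GRCm38.p6).

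The members and gene lists were chosen with earlier results of these data known. Named genes are all measured members, up to 6 genes per pathway list with the largest range of group means among those called, up to 3 per marker list with the highest mean, and for each member that spans at least 1 log2 the 3 genes most like it. Genes named outside this rule are neighbours of members and markers at background. The alternatives were cyclic loess or quantile normalization, array weights, an intensity trend, only the groups compared, a filter on dim genes, the mean of all probe sets of a gene, a threshold of 0.01, the replicate number as a block, and leaving out each array. The labels name no batch.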

Additional observations from a re-analysis of the deposited data

Results flagged for a closer look

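In 3 members the change from 2 to 4 weeks differed between GFP+ iCMs and GFP- cells in the limma interaction test. The difference (iCMs minus GFP- cells) was -1.71 ± 0.23 log2 (SE) for Mest, adjusted p = 0.000225, -1.09 ± 0.17 for Plagl1, adjusted p = 0.000866, and -0.89 ± 0.20 for Peg3, adjusted p = 0.0116. For Mest the 3 GFP- arrays at 4 weeks lay above the 3 at 2 weeks, and the iCM arrays of both times overlapped. With 3 arrays in each group, no group was large enough for a test of single outlying arrays.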

How the results depend on the processing

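Over 96 combinations of member and comparison, 60 of 2496 values under the alternatives crossed the threshold, in 17 combinations. In part of these values only the p-value could change. Each member had 1 probe set, so the mean of all probe sets kept its log2 differences. Leaving out an array of a group outside the comparison kept them too. So did the intensity trend, only the groups compared, the filter on dim genes and the replicate block. None of the called differences changed sign under these alternatives, and 43 values that were not called did. In the settings that kept the differences, no change of sign was possible. Members called in 4-week iCMs against CF numbered 5 in the fit reported, 3 at an adjusted p under 0.01, and from 3 to 5 when 1 array was left out. In 4-week against 2-week iCMs the number was 1 in the fit reported, 3 with array weights (Igf2 higher, Grb10 and Igf2r lower, Mest no longer called), 0 at an adjusted p under 0.01 (limma, with 3 at an unadjusted p under 0.05), and from 0 to 2 when 1 array was left out. Fewer arrays and the stricter threshold are part of how these settings are built, and for array weights the cause was not tested. Replicate numbers are shared by all groups. The deviations of same-numbered arrays from their group means correlated at a median of -0.002 (45 pairs, 15 of them over 0.1, highest 0.454). For different numbers the median was 0.001 (90 pairs, 21 of them over 0.1, highest 0.413). The numbers were not taken as pairs, though a median over all pairs cannot exclude pairing between particular groups. With the number as a replicate block, 7 members were called in CM against CF and no count of called members changed in any of the 12 comparisons. Quantile and cyclic loess normalization moved the median over all genes to between -0.03 and 0.04 log2. Without a detection call per probe set, a fall towards background cannot be measured.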
